A study of Homo sapiens with 12 samples.

Results

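MBOAT2 and 9 further genes that build or remodel membrane phospholipids were followed in the ovarian cancer line ES-2, 8 hours after 15 µM cisplatin, a platinum drug that crosslinks DNA. The 10 genes were chosen by the measured fall of MBOAT2 between the constructs, among the largest in the table, and listed by name with it as a group (MBOAT1, MBOAT2, MBOAT7, LPCAT1, LPCAT2, LPCAT3, LPCAT4, AGPAT1, ACSL3 and ACSL4). All 10 were measured, among 14029 genes tested. The series holds 12 samples in 4 groups of 3, which cross a control vector (PLKO in the titles, labelled WT) or an SRMS shRNA (labelled SRMS knockdown) with phosphate-buffered saline (PBS) or cisplatin. Values were used for 6 of them, the vector with cisplatin and the SRMS shRNA with cisplatin, so both groups carry a construct and both received the drug. The 6 PBS samples are not analysed here, and no response to cisplatin was measured. The labels give neither the sequence of the hairpin nor whether each line is a clone.

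Membrane phospholipids are made and then edited: a phospholipase A removes a fatty acid, and a lysophospholipid acyltransferase puts another in its place, a cycle known as the Lands cycle. The fatty acid is first joined to coenzyme A by an acyl-CoA synthetase. Which acyltransferase acts decides which fatty acid enters, and so how fluid the membrane is and how easily its lipids are oxidised. Cells die by ferroptosis when polyunsaturated phospholipids are oxidised beyond repair. ACSL4 is known as a promoter of that death, and MBOAT1, MBOAT2 and ACSL3, which favour monounsaturated fatty acids, are known to oppose it.

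SRMS, the targeted kinase gene, showed no drop with the SRMS shRNA label. Its signal was 0.0669, 0.306 and 0.819 in vector replicates 1, 2 and 3. With the SRMS shRNA label it was 0.328, 1.07 and 0.863, from 2 to 47 reads a library. The groups overlapped, and the log2 fold change was 0.52 (95% interval -0.15 to 1.19, limma adjusted p = 0.168). Blocking on the replicate number put SRMS higher with the SRMS shRNA label (limma adjusted p = 0.00782). That call was absent once the length and GC trend was also taken out (0.25, limma adjusted p = 0.194), in edgeR (adjusted p = 0.259) and in DESeq2 (adjusted p = 0.437). Directions below therefore name the libraries by their labels. Recovered reads came to between 28009232 and 56855428 a library. In each group replicates 2 and 3 lay closer to each other than to replicate 1: the mean chi-square per gene was 1.79 and 1.65 for that pair, against 3.55 to 5.07 for pairs with replicate 1. The labels do not tie replicates to separate cultures, so each p reflects the spread between these libraries, which may be technical. In bulk RNA, fewer cells expressing a gene and less of its RNA in each cell cannot be told apart. Among markers of the cell line and of ovarian carcinoma, KRT7, KRT18 and VIM were abundant, PAX8 and NAPSA lay near 0, and EPCAM and KRT19 were not analysed here. The summed signal of 3 leukocyte markers was 49.3 to 52.1 with the vector and 60.2 to 64.6 with the SRMS shRNA label, nearly all of it CD68. That of 3 endothelial markers was 14.8 to 16.8 and 5.88 to 8.36, nearly all of it CDH5, and that of 5 fibroblast markers was 1246 to 1251 and 822 to 828, nearly all of it COL1A1. The part of these shifts in the results below was not tested.

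MBOAT2, which adds oleic acid to lysophosphatidylcholine and lysophosphatidylethanolamine, was the gene that set the list. Its deposited signal (library-scaled reads on a CPM-like scale) was 13.1, 14.3 and 13.2 in vector replicates 1, 2 and 3. With the SRMS shRNA label it was 3.72, 2.67 and 3.13. The highest library of the second group lay far below the lowest of the first, and the 3 libraries of each group stood close together. The means were 13.5 ± 0.678 and 3.17 ± 0.529 (SD, n = 3 each), so that 23.4% of the vector level was left. Behind these values stood 391, 656 and 759 reads with the vector and 102, 97 and 98 with the SRMS shRNA label. On the scale of log2(value + 0.5), which understates the change of low genes, the fold change was -1.94 (SE 0.11). It was the 5th lowest of the 14029 genes. Since this fall chose the genes, it is a description and carries no test.

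**Figure D1:**
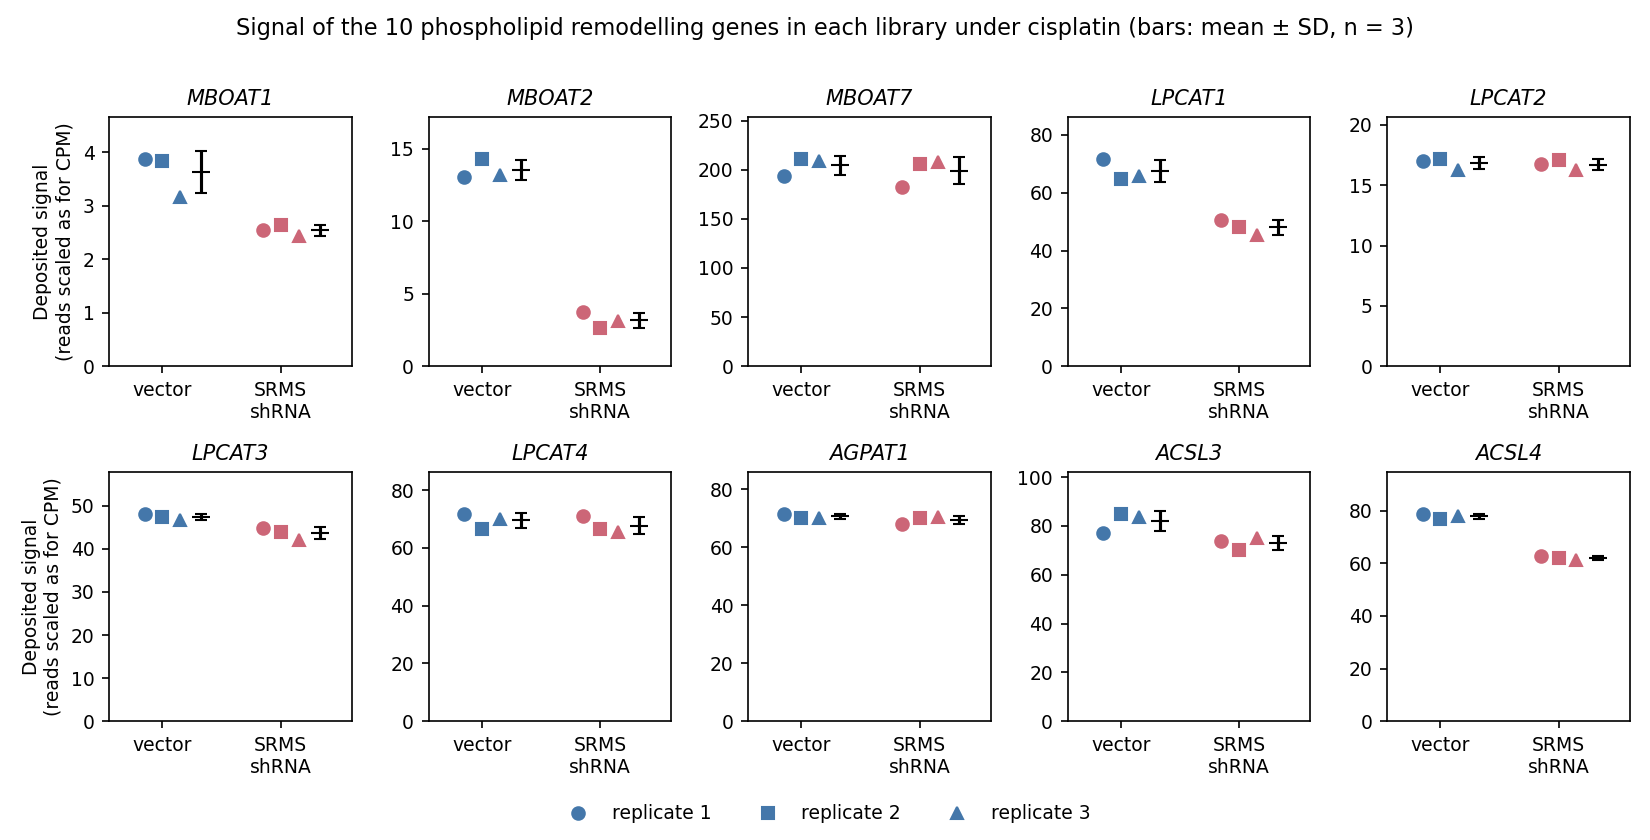
Deposited signal (vertical axis, reads scaled as for CPM, from 0) of the 10 genes in each of the 6 libraries, with 1 panel per gene, vector in blue and SRMS shRNA in red, a symbol per replicate number and a bar for the mean ± SD (n = 3). MBOAT2 drops from a mean of 13.5 to 3.17 with a wide gap between the groups, MBOAT1, LPCAT1 and ACSL4 show smaller gaps, and the groups overlap for MBOAT7, LPCAT2, LPCAT4 and AGPAT1.

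MBOAT2 (ENSG00000143797) occupies chr2:8852690-9003813 (GRCh38, minus strand). Its annotated transcript is long, at 7751 nt, of which 5992 nt are 3′ untranslated. An earlier scan of these same fold changes had picked out the hexamer CGTGTC, so the transcripts of the 10 genes and of SRMS were searched for it on the sense strand. MBOAT2 holds 1 copy, in its 3′ UTR, and SRMS, the intended target, holds 1 in its coding sequence. Windows of 30 nt around 4 copies, from GENCODE release 29, are shown so that the neighbouring bases can be compared. The hexamer is in capitals, and each line runs 5′ to 3′ along the mRNA:
MBOAT2, 3′ UTR, chr2:8858333-8858362, minus strand: tggaaaaataatCGTGTCaatctggatgat
SRMS, coding, chr20:63541258-63541287, minus strand: gcggccaattatCGTGTCttctcccagaag
LPCAT2, coding, chr16:55525529-55525558, plus strand: ttgcttccaattCGTGTCttattggttgcg
LPCAT1, 3′ UTR, chr5:1463228-1463257, minus strand: agcgtgcgcttgCGTGTCactctggcacga
Aligned on the hexamer, the SRMS window matches that of MBOAT2 at 14 of 30 bases, the LPCAT2 window at 15 and the LPCAT1 window at 13. The coding windows of LPCAT1 and ACSL3, not shown, match at 10 each, so those shown are the closest ones. The 5′ UTR copy of LPCAT2 was not compared. The bases of the hexamer match by construction and are part of each count, so no likeness is read from these counts. In all, 4 of the 10 genes hold the hexamer. MBOAT2 has 1 copy, LPCAT1 and LPCAT2 have 2 each, and ACSL3 has 1, in its coding sequence.

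Copies in any part of the transcript are counted together here, and whether they bear on the change was not tested. LPCAT2 has 2 copies, neither in its 3′ UTR, and a log2 fold change of -0.01. LPCAT1 has 2 copies, 1 of them in its 3′ UTR, and -0.49, and MBOAT1 has none and -0.44. Of all 14029 transcripts 28.5% hold the hexamer, with a median log2 fold change of -0.06 against 0.03 for those without it. Of the 1046 transcripts between 6500 and 9000 nt, near the length of MBOAT2, 44.3% hold it. Among those 1046, the median log2 fold change was -0.24 with the hexamer and -0.22 without it. The hexamer was picked from these same fold changes, so nothing is read from the medians or from the single genes above. A match is a description of letters and not of a site in use.

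Of the 10 genes, 6 were lower in the libraries labelled SRMS shRNA and 0 were higher, by limma at an adjusted p under 0.05. Over all genes tested 30.2% were lower and 26.6% higher, and since the list was set by this contrast nothing is read from the comparison. The count at an unadjusted p under 0.05 was also 6 lower and 0 higher, and edgeR and DESeq2 on the recovered reads each gave 5 lower and 0 higher. Of all genes edgeR called 29.7% lower and 27.7% higher, and DESeq2 27.0% and 25.6%. The groups did not overlap in the same direction for 6 genes, against 32.9% of all genes. The median log2 fold change of the 10 was -0.14, beside 0.0031 for all genes. With the libraries aligned on their median, which moved the median of all genes to 0.16, the split of the 10 turned to 4 lower and 3 higher, beside 17.9% and 44.6% of all genes. Quantile scaling gave 5 lower and 1 higher, beside 26.3% and 28.3%. The replicate block gave 6 and 0, beside 34.3% and 31.0%. Removing a trend with transcript length and GC content as well gave 8 and 2, beside 30.2% and 30.5%.

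By protein family, 3 of 4 members of the membrane-bound O-acyltransferase (MBOAT) family fell, MBOAT2 among them, 1 of 4 members of the AGPAT family fell, and both acyl-CoA synthetases fell, beside 30.2% of all genes. These counts include MBOAT2, whose fall set the list, and LPCAT3, whose call depended on the setting. The other MBOAT enzymes changed far less than MBOAT2. MBOAT1, its closest relative in the list, transfers mainly oleic acid to lysophosphatidylethanolamine and lysophosphatidylserine. Its signal was 3.88, 3.84 and 3.17 with the vector and 2.55, 2.64 and 2.43 with the SRMS shRNA label. All 3 values of the second group lay below the first. The log2 fold change was -0.44 (SE 0.107, limma adjusted p = 0.00549), with a mean of 3.63 ± 0.399 against 2.54 ± 0.105 (SD, n = 3 each). With the libraries aligned on their median it was -0.28 (limma adjusted p = 0.0425). MBOAT1 was read from 116 to 182 reads with the vector and 70 to 96 with the SRMS shRNA label.

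LPCAT3, also an MBOAT enzyme, is the main route of polyunsaturated fatty acids into phosphatidylcholine and phosphatidylethanolamine. It measured 48.2, 47.5 and 46.7 with the vector and 44.9, 43.9 and 42.1 with the SRMS shRNA label. The groups did not overlap, yet the step between them was small, at a log2 fold change of -0.12 (SE 0.0437, limma adjusted p = 0.0381). That call was lost in edgeR (adjusted p = 0.0506) and DESeq2 (adjusted p = 0.128). It was also lost without vector replicate 1, 2 or 3 (limma adjusted p = 0.0956, 0.0996 and 0.0739) and without SRMS shRNA replicate 2 or 3 (0.0742 and 0.137). With median scaling the sign turned, to 0.04. Exons of EMG1 on the opposite strand cover 66.4% of its transcript. EMG1 itself had -0.14 (limma adjusted p = 0.00965). The libraries were stranded, but whether counting used the strand is not given in the sources used here, so reads of the pair may be mixed.

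MBOAT7, which puts arachidonic acid into phosphatidylinositol, measured 194, 211 and 209 with the vector and 183, 206 and 208 with the SRMS shRNA label. The groups overlapped, and replicate 1 was the lowest library of each. The log2 fold change was -0.04 with a 95% interval of -0.16 to 0.08 (limma adjusted p = 0.523). Under the block with that trend taken out it was -0.15 (limma adjusted p = 2.85e-06), and with median scaling 0.12 (limma adjusted p = 0.0978).

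Ratios within a library are unchanged by a factor common to all its genes, though not by quantile scaling or trend removal. These pairs were chosen after the values had been seen. MBOAT2 over MBOAT1 was 3.37, 3.73 and 4.17 with the vector and 1.46, 1.01 and 1.29 with the SRMS shRNA label. MBOAT2 over MBOAT7 averaged 0.0662 ± 0.0025 and 0.0161 ± 0.0038 (SD, n = 3 each). Neither ratio overlapped between the groups, which the choice of MBOAT2 for its fall makes a description and no test.

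Among the enzymes of the AGPAT family LPCAT1 stood apart. LPCAT1 makes saturated phosphatidylcholine, known above all from lung surfactant. Its signal was 71.8, 64.6 and 65.9 with the vector and 50.5, 48.2 and 45.3 with the SRMS shRNA label. Each library of the second group lay below each of the first. The means were 67.4 ± 3.79 and 48.0 ± 2.59 (SD, n = 3 each), a log2 fold change of -0.49 (SE 0.0547, limma adjusted p = 4.13e-05). It stayed past the threshold in the same direction in all 18 other settings, with log2 fold changes from -0.52 to -0.33.

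The other AGPAT enzymes did not pass the test. LPCAT2, which can also make platelet-activating factor, measured 17.0, 17.2 and 16.3 with the vector and 16.8, 17.1 and 16.3 with the SRMS shRNA label. LPCAT4, which acts mainly on lysophosphatidylethanolamine, measured 71.9, 66.7 and 70.0 against 71.0, 66.7 and 65.6. AGPAT1, which makes phosphatidic acid from lysophosphatidic acid in new synthesis, measured 71.6, 70.1 and 70.2 against 67.9, 70.0 and 70.4. In each of these genes the groups overlapped.

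The 95% intervals of their log2 fold changes were -0.14 to 0.12 for LPCAT2, -0.14 to 0.07 for LPCAT4 and -0.11 to 0.06 for AGPAT1, and the limma adjusted p were 0.905, 0.52 and 0.609. All 3 depended on the scaling. With the libraries aligned on their median they had 0.15, 0.12 and 0.14, each past the threshold (limma adjusted p = 0.0448, 0.0311 and 0.0104). The median of all genes was 0.16 in that setting, and 44.6% of all genes were called higher, so these values were not above the typical gene. With the replicate block and the length and GC trend removed LPCAT2 had 0.24, whereas LPCAT4 had -0.13 and AGPAT1 -0.08 (limma adjusted p = 0.00105, 0.00103 and 0.0382). Exons of EGFL8 and a readthrough gene on the opposite strand cover 41.7% of the AGPAT1 transcript, so its reads may be mixed as well. EGFL8 had a signal of 14.6 ± 0.535 with the vector (SD, n = 3).

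LPCAT1 was set against LPCAT4 and LPCAT3 within each library. LPCAT1 over LPCAT4 was 0.998, 0.969 and 0.942 with the vector and 0.711, 0.723 and 0.691 with the SRMS shRNA label. LPCAT1 over LPCAT3 averaged 1.42 ± 0.0644 and 1.10 ± 0.0242 (SD, n = 3 each). Neither ratio overlapped between the groups. These pairs were also chosen after the values had been seen, so the ratios describe the fall of LPCAT1 again and add no test.

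The acyl-CoA synthetases were lower by smaller steps. ACSL4, which prefers arachidonic acid, measured 78.9, 76.8 and 77.9 with the vector and 62.8, 62.1 and 61.2 with the SRMS shRNA label. The libraries of a group lay within a few units of each other, with means of 77.85 ± 1.03 and 62.0 ± 0.820 (SD, n = 3 each). The log2 fold change was -0.33 (SE 0.0368, limma adjusted p = 4.29e-05). ACSL4 has a long transcript of 5333 nt, and with the replicate block and the length and GC trend removed its change shrank to -0.08 (limma adjusted p = 0.0304). With median scaling it was -0.17 (limma adjusted p = 0.00257).

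ACSL3, which feeds oleic acid to phospholipids and lipid droplets, measured 77.1, 85.0 and 83.8 with the vector and 73.8, 69.9 and 75.2 with the SRMS shRNA label. The groups came close without overlapping, and the log2 fold change was -0.17 (SE 0.0483, limma adjusted p = 0.0134). The call was lost with median scaling (-0.01, limma adjusted p = 0.914). It was also lost without vector replicate 2 or 3 (limma adjusted p = 0.0652 and 0.0582), without SRMS shRNA replicate 2 (0.0595) and with replicates 2 and 3 averaged (0.108). With the block and the length and GC trend removed it turned to 0.09 (limma adjusted p = 0.0169). ACSL4 over ACSL3 was 1.02, 0.903 and 0.929 with the vector and 0.851, 0.889 and 0.813 with the SRMS shRNA label. The lowest vector value lay just above the highest of the other group, in a pair also chosen after the values had been seen.

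**Figure D2:**
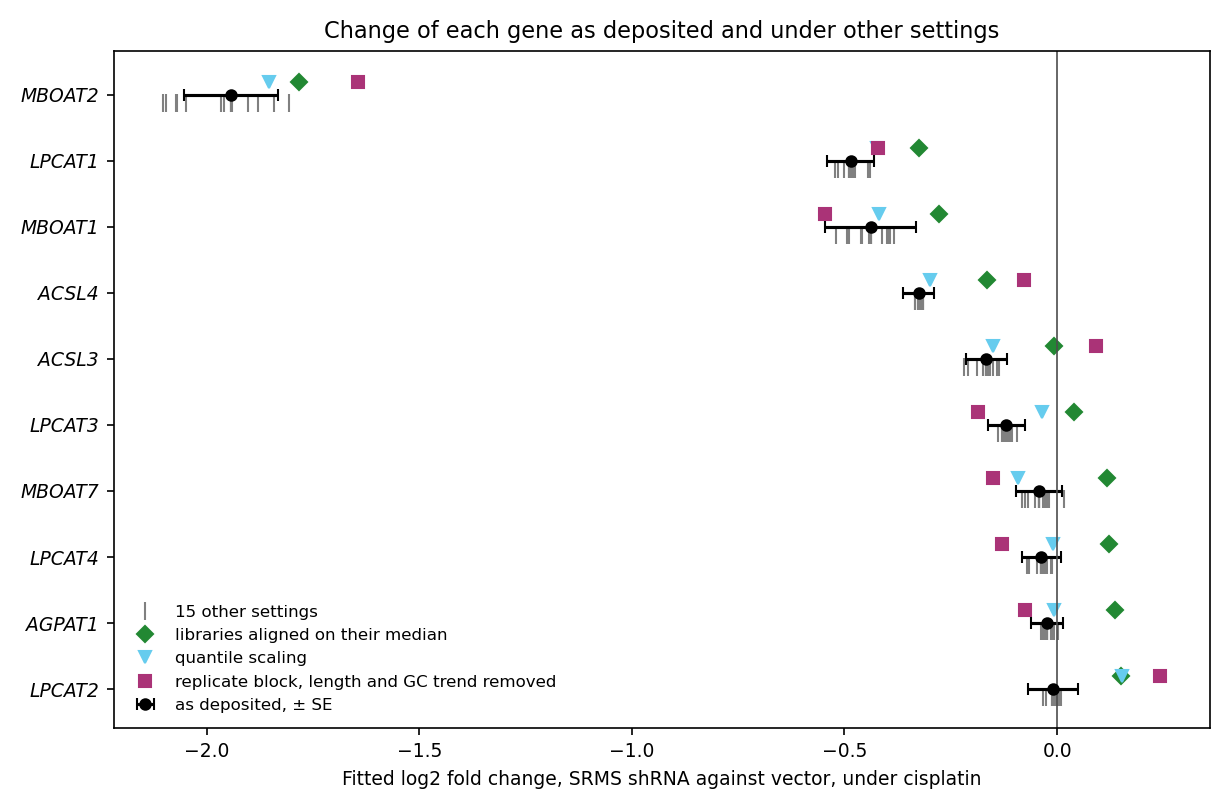
Fitted log2 fold change (horizontal axis, SRMS shRNA against vector under cisplatin) of the 10 genes, with the value as deposited ± SE in black, 15 other settings as grey ticks, and 3 settings that shift the values as coloured symbols. MBOAT2 stays between -2.10 and -1.65 and LPCAT1, MBOAT1 and ACSL4 stay below 0 in every setting drawn, whereas the other genes move across 0 or near to it with median scaling or with the length and GC trend removed.

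Levels of the genes were compared per kilobase of the annotated transcript. With the vector MBOAT7 was the most abundant at 80.9 ± 3.76, followed by LPCAT4 at 30.7 ± 1.15, AGPAT1 at 28.3 ± 0.326, LPCAT3 at 20.9 ± 0.317 and LPCAT1 at 17.0 ± 0.956 signal units per kilobase (mean ± SD, n = 3 each). ACSL4 at 14.6 ± 0.193 and ACSL3 at 14.4 ± 0.752 overlapped. LPCAT2 at 3.12 ± 0.0883 came next, and MBOAT1 at 2.02 ± 0.222 and MBOAT2 at 1.75 ± 0.0874 stood lowest and overlapped. All other neighbours in this order were apart in every library. MBOAT2 was thus the least abundant of the 10 by its mean, though not apart from MBOAT1.

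In the libraries labelled SRMS shRNA the order was the same at the top. LPCAT1, at 12.1 ± 0.652 per kilobase, moved in between ACSL3 at 12.8 ± 0.481 and ACSL4 at 11.6 ± 0.154 and overlapped both. MBOAT2, at 0.409 ± 0.0682, no longer overlapped MBOAT1, at 1.42 ± 0.0587 (mean ± SD, n = 3 each). The summed level of the 8 acyltransferases was 185 ± 1.19 per kilobase with the vector and 173 ± 3.71 with the SRMS shRNA label, and MBOAT2 made up 0.946% ± 0.0436 and 0.238% ± 0.0447 of it (SD, n = 3 each). Per kilobase of coding sequence MBOAT2 ranked 9 instead of 10 in both groups, above MBOAT1, since most of its transcript is untranslated.

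**Figure D3:**
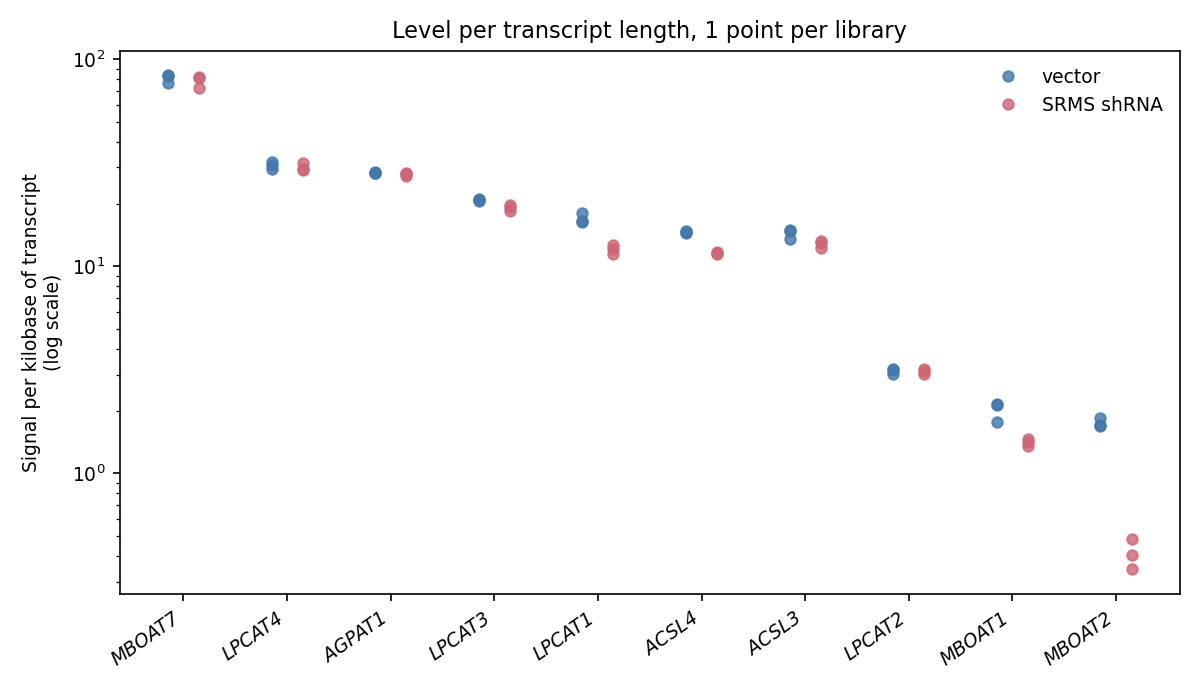
Signal per kilobase of annotated transcript (vertical axis, log scale) of the 10 genes in order of their vector level, with 1 point per library, vector in blue and SRMS shRNA in red. MBOAT7 stands highest at 80.9 with the vector, MBOAT1 and MBOAT2 stand lowest at 2.02 and 1.75, and only MBOAT2 drops below 1, to 0.409, with the SRMS shRNA label.

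The genes most like MBOAT2 across the 6 libraries were found by the root mean square difference of log2 values, each centred on its own mean. This measure is dominated by the step between the groups for which MBOAT2 was chosen, so it describes and does not test. The closest was NFATC4, a calcium-regulated transcription factor, at 0.133, and it fell from 7.09 ± 0.403 with the vector to 1.70 ± 0.197 with the SRMS shRNA label (SD, n = 3 each). TRAFD1 had 0.169, BMPR1A, a BMP receptor, 0.172, LAMA5, a laminin chain, 0.190 and ACTN4, an actin crosslinker, 0.192. None of the 5 is an enzyme of lipid metabolism. Their log2 fold changes ran from -1.79 for NFATC4 to -1.60 for LAMA5.

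Among 12 other acyltransferases for glycerophospholipids 5 were lower and 1 higher by limma, beside 30.2% and 26.6% of all genes, with a median log2 fold change of -0.15 beside 0.0031 for all genes. With DESeq2 3 were lower, beside 27.0% of all genes. LCLAT1, which acts on lysocardiolipin and lysophosphatidylinositol, fell from 3.94 ± 0.525 to 2.68 ± 0.208 (log2 fold change -0.48, limma adjusted p = 0.00523). LPGAT1, another lysophospholipid acyltransferase, fell from 16.1 ± 1.83 to 11.9 ± 1.45 (SD, n = 3 each; -0.42, limma adjusted p = 0.00484). AGPAT4, AGPAT5 and AGPAT3, relatives of AGPAT1, fell by 0.23, 0.15 and 0.16 on the log2 scale, but AGPAT5 turned to 0.0084 with median scaling and AGPAT4 to 0.014 with the block and trend removed. AGPAT3 was not called by edgeR (adjusted p = 0.0575) or DESeq2 (adjusted p = 0.111), and it had -0.004 with median scaling and -0.007 with the block and trend removed. AGPAT2 had 0.10 (limma adjusted p = 0.364), and GPAT2, a low-abundance glycerol phosphate acyltransferase, rose by 0.49. Median scaling gave 2 lower and 2 higher, beside 17.9% and 44.6% of all genes. With the block and the length and GC trend removed it was 2 lower and 3 higher, beside 30.2% and 30.5%. LPGAT1 and LCLAT1 had no call there.

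The wider MBOAT superfamily, whose other enzymes act on sterols, diacylglycerol or proteins, moved both ways. Of 5 measured genes 2 were lower and 2 higher, beside 30.2% and 26.6% of all genes. SOAT1, which esterifies cholesterol, fell from 73.7 ± 0.13 to 61.0 ± 1.5 (log2 fold change -0.27, limma adjusted p = 0.000174). It had 0.0099 with the block and trend removed. PORCN, which acylates WNT proteins, fell by 0.26 on the log2 scale. With median scaling PORCN had -0.096 and no call (limma adjusted p = 0.305). DGAT1, which makes triacylglycerol, rose by 0.17 and HHAT, which acylates hedgehog proteins, by 0.51. Their calls were lost in 6 and 4 other settings. With median scaling 1 was lower and 3 were higher, beside 17.9% and 44.6% of all genes.

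Of 9 other acyl-CoA synthetases measured, 4 were higher and 1 lower by limma, beside 26.6% and 30.2% of all genes. ACSL5 rose from 37.2 ± 1.41 to 47.8 ± 0.565 (log2 fold change 0.36, limma adjusted p = 8.98e-05), and SLC27A5, a bile acid and very long chain synthetase, rose from 3.17 ± 0.578 to 6.93 ± 0.484 (SD, n = 3 each; 1.03, limma adjusted p = 5.83e-05). SLC27A3 rose by 0.45, with its call lost in 3 of the 18 other settings. SLC27A4 fell by 0.13 on the log2 scale, with 0.034 under median scaling and its call lost in 10 further settings. ACSL1 had -0.09 (limma adjusted p = 0.326). With the replicate block 3 were higher and 2 lower, beside 31.0% and 34.3% of all genes. With edgeR or DESeq2 3 were higher and 0 lower, beside 27.7% and 29.7% or 25.6% and 27.0%. With median scaling 4 were higher and 0 lower, beside 44.6% and 17.9%. ACSL5 and SLC27A5 kept their calls with the block and the length and GC trend removed, at 0.45 and 0.91.

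On the other side of the cycle, phospholipases A and lysophospholipases were split, with 8 of 21 lower and 5 higher, near the 30.2% and 26.6% of all genes. LYPLA1 and LYPLA2, which hydrolyse lysophospholipids and also remove palmitate from proteins, fell most. LYPLA2 measured 61.6, 61.6 and 59.5 with the vector and 31.6, 32.5 and 30.2 with the SRMS shRNA label, a log2 fold change of -0.94 (SE 0.0453, limma adjusted p = 2.56e-07). LYPLA1 measured 73.6, 81.1 and 82.1 against 44.9, 47.0 and 45.7, at -0.78 (SE 0.0493, limma adjusted p = 1.22e-06). In both genes the groups stood far apart.

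PLA2G4A, the cytosolic phospholipase A2 that releases arachidonic acid, fell from 11.5 ± 0.898 to 8.08 ± 1.27 (log2 fold change -0.49, limma adjusted p = 0.00345), and DDHD1, a phospholipase A1, by 0.43 on the log2 scale. ABHD12, a lysophosphatidylserine lipase, rose from 80.2 ± 4.33 to 98.2 ± 3.96 (SD, n = 3 each; 0.29, limma adjusted p = 0.000524). PLA2G6, a calcium-independent phospholipase A2, PNPLA7 and GDPD3 rose as well, by 0.33, 0.62 and 0.62, all from a signal under 2. Their calls were lost in 7, 1 and 4 of the 18 other settings. With median scaling the list had 6 lower and 8 higher, beside 17.9% and 44.6% of all genes.

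New synthesis of phospholipids had 8 of 22 genes lower and 4 higher, beside 30.2% and 26.6% of all genes. LPIN2, a phosphatidic acid phosphatase that makes diacylglycerol, measured 41.7, 40.3 and 40.2 with the vector and 20.0, 19.3 and 18.8 with the SRMS shRNA label. Its log2 fold change was -1.05 (SE 0.0499, limma adjusted p = 2.34e-07), and it was -0.85 with the block and the length and GC trend removed. PCYT1A, which sets the rate of phosphatidylcholine synthesis, fell by 0.47 on the log2 scale and LPIN1, a relative of LPIN2, by 0.28 (without a call under median scaling, at -0.12). PEMT, which methylates phosphatidylethanolamine, measured 30.2, 33.5 and 36.5 with the vector and 39.9, 49.3 and 51.1 with the SRMS shRNA label, and rose (0.48, limma adjusted p = 0.00151). Its change shrank to 0.17 with the block and the length and GC trend removed (limma adjusted p = 0.000557). CDIPT, which makes phosphatidylinositol, rose by 0.29 and PTDSS2, a phosphatidylserine synthase, by 0.22. With median scaling 3 genes were lower and 5 higher, beside 17.9% and 44.6% of all genes. The block with the trend removed gave 8 lower and 7 higher, beside 30.2% and 30.5%.

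Of 17 desaturases and elongases, which supply the fatty acids, 2 were lower and 3 higher, beside 30.2% and 26.6% of all genes, and the list median was -0.00086. ELOVL5, which lengthens polyunsaturated fatty acids, fell from 88.0 ± 2.95 to 61.5 ± 2.26 (SD, n = 3 each), or by 0.51 on the log2 scale (limma adjusted p = 6.44e-06). FADS1, a desaturase of the same route, fell by 0.14 on the log2 scale but had 0.019 with median scaling. FADS3, TECR and HACD1 rose by 0.31, 0.20 and 0.22, and TECR turned to -0.081 with the block and trend removed. FADS3 and HACD1 lost their calls in 5 and 7 of the 18 other settings, and TECR in 4 further ones. With median scaling 1 was lower and 8 were higher, beside 17.9% and 44.6% of all genes. For ether phospholipids, beside the same shares of all genes, 2 of 5 genes were lower, FAR1 at -0.24 and AGPS at -0.23, and 2 were higher, FAR2 at 0.15 and GNPAT at 0.11. With median scaling 0 of these were lower and 2 higher, beside 17.9% and 44.6% of all genes. With the block and trend removed FAR1 had 0.013 and AGPS 0.074. FAR2 and GNPAT lost their calls in 5 and 6 of the 18 other settings.

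**Figure D4:**
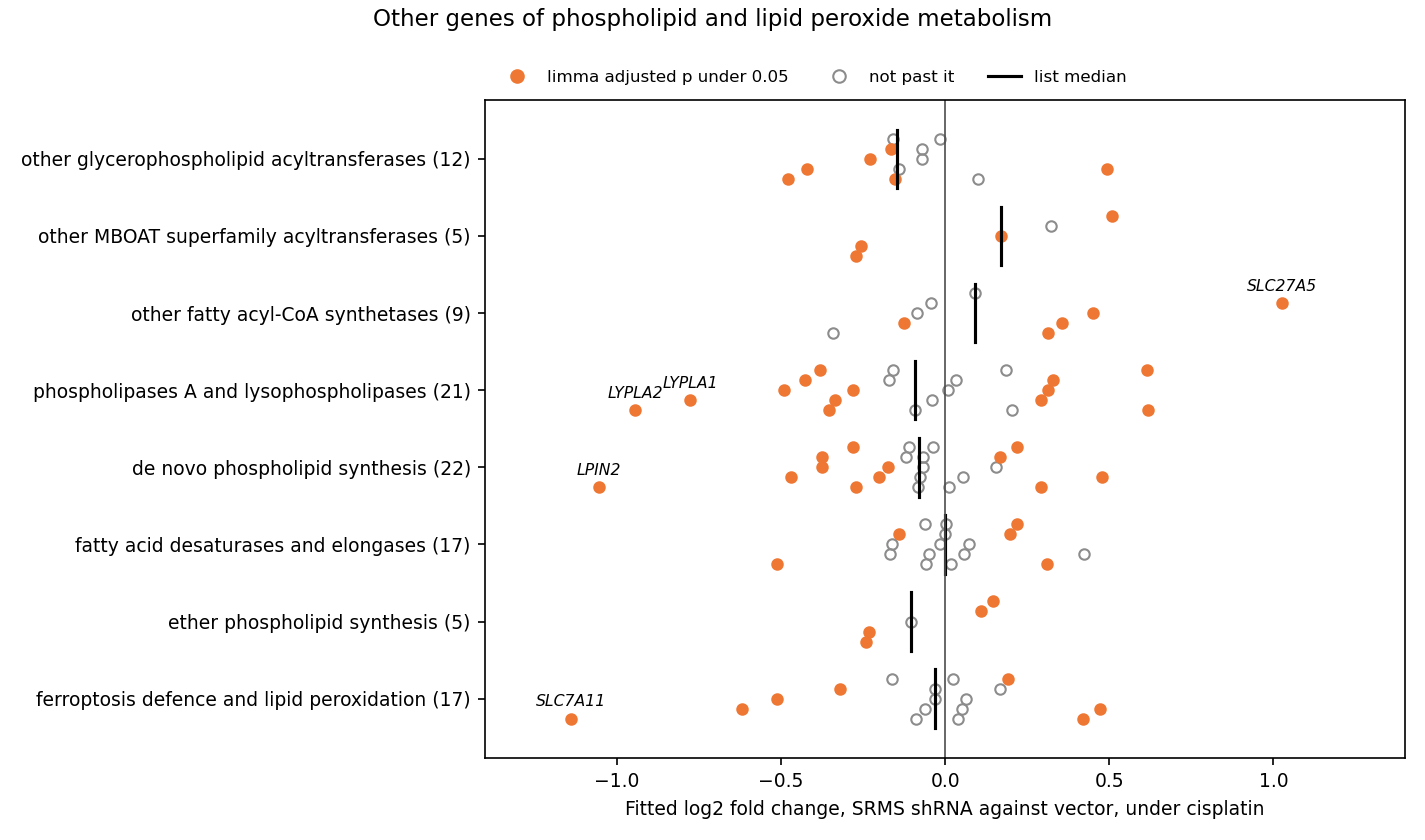
Fitted log2 fold change (horizontal axis, SRMS shRNA against vector under cisplatin) of each measured gene in 8 lists, with the number of genes in parentheses, filled points for a limma adjusted p under 0.05, open points for the rest and a bar for the list median; heights within a list only separate points. Of 108 genes 97 lie within 0.5 of 0, and SLC7A11, LPIN2, LYPLA2 and LYPLA1 lie furthest to the left at -1.14, -1.05, -0.94 and -0.78.

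Genes that guard against or promote lipid peroxidation were also mixed, with 4 of 17 lower and 3 higher, beside 30.2% and 26.6% of all genes. GPX4, the enzyme that reduces lipid peroxides, measured 190, 196 and 201 with the vector and 247, 292 and 278 with the SRMS shRNA label. The groups did not overlap, at a log2 fold change of 0.47 (SE 0.0558, limma adjusted p = 5.69e-05), which was 0.14 with the block and the length and GC trend removed. SLC3A2, the partner chain of the cystine transporter, rose by 0.42, whereas SLC7A11, its transport chain, fell from 17.7 ± 1.37 to 7.77 ± 0.886 (SD, n = 3 each; -1.14, limma adjusted p = 4.69e-06). TFRC, the transferrin receptor that brings in iron, fell by 0.62 and NFE2L2, the regulator of the antioxidant response, by 0.32 on the log2 scale. ALOX12, a lipoxygenase, rose by 0.19, but its call was lost in 9 of the 18 other settings. With median scaling the list had 4 lower and 10 higher, beside 17.9% and 44.6% of all genes. The block with the length and GC trend removed gave 9 lower and 2 higher, beside 30.2% and 30.5%.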

How the data were processed

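Poly(A) RNA was read on stranded paired-end libraries, per the labels' protocols. The submitters' processing notes name GRCh38 and, in no stated role, FastQC, cutadapt, HISAT2, StringTie and edgeR. Versions, settings and the low-count filter are unknown here (not given in the sources used here). As deposited by the authors, values are a linear signal, namely library-scaled reads on a CPM-like scale, as the values show. Dividing by the worth of 1 read gave whole reads, within 0.1, for at least 99.99% of values in each library. Of 14042 rows, 13 Y copies of pseudoautosomal genes were left out. All genes were fitted with limma 3.58.1 (R 4.3.3, mean-variance trend, log2(value + 0.5)), with Benjamini-Hochberg adjustment over 14029 genes and a threshold of 0.05; the scripts were tested on simulated data. Recovered reads were tested with edgeR 4.0.16 and DESeq2 1.42.0. Other settings were median and quantile scaling, pseudocounts, a filter, no trend, the replicate block, that block with a spline trend on transcript length and GC content removed, and libraries left out or averaged. Transcripts are from GENCODE release 29, 1 per gene (coding, principal by APPRIS where marked, longest).

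Libraries sharing a number deviated together from their group means (r = 0.578, 0.315 and 0.283 over 10271 genes), above the limit of 0.1 set for calling numbers paired; replicates 2 and 3 of different groups correlated as much, at 0.270 and 0.285. The p-values come from the fit without the block, and the blocked value is given where it changes a call. The members and lists were chosen with earlier results of these data known. Named were the 10 members, up to 3 genes in each direction with the smallest adjusted p in each of 8 pathway lists, 12 genes paired by role with members, the 5 genes most like MBOAT2 (vector mean log2 value 2 or more), and SRMS.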

Additional observations from a re-analysis of the deposited data

How the results depend on the processing

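Each member was refitted in 18 other settings. MBOAT1, LPCAT1 and ACSL4 kept their direction and their call in all 18, and MBOAT2 ran from -2.10 (edgeR) to -1.65 (replicate block with the length and GC trend removed), with -1.78 under median scaling and -2.05 to -1.84 with single libraries left out. The count of members higher went from 0 to 3 with median scaling, 1 with quantile scaling and 2 with the block and trend removed; when a log2 change of 1 or more was also required, 1 member was lower. Over all genes median scaling gave 6254 higher and 2510 lower against 3736 and 4233, and the fold limit gave 105 and 187. With the replicate block alone the members stayed at 6 lower and 0 higher, and the block changed no member's call. Other settings turned the signs of several members. MBOAT7 had 0.12 with median scaling and 0.016 without SRMS shRNA replicate 1. LPCAT2 had 0.15 with median and with quantile scaling and 0.24 with block and trend removed. LPCAT2 was also just above 0 in edgeR (0.0014), in DESeq2 (0.0054), without vector replicate 2 (0.0060) and without SRMS shRNA replicate 3 (0.0092). LPCAT3, LPCAT4 and AGPAT1 had 0.041, 0.12 and 0.14 with median scaling. Without replicate 1 of both groups AGPAT1 had 0.0013. ACSL3 had 0.092 with block and trend removed. Among the other genes named, median scaling turned AGPAT5 (0.0084), ACSL1 (0.074), ASAP2 (0.014), EMG1 (0.016), EGFL8 (0.092), SLC27A4 (0.034) and FADS1 (0.019). Quantile scaling turned ACSL1 (0.045), ASAP2 (0.015) and EGFL8 (0.095). The block with the trend removed turned ACSL1 (0.037), ASAP2 (0.059), EMG1 (0.005), AGPAT2 (-0.16), AGPAT4 (0.014), SOAT1 (0.0099), TECR (-0.081), AGPS (0.074) and FAR1 (0.013). The position of MBOAT2 by level was 9 per kilobase of coding sequence, chosen after seeing the data, against 10 per kilobase of transcript. Beyond the construction of each setting, the cause was not tested. MBOAT2 rested on 97 to 102 reads a library in the lower group, NFATC4 on 47 to 62 and BMPR1A on 44 to 53, so counting error limits these values.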

Other observations

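The measured genes next to MBOAT2 on chromosome 2 moved in both directions. They were picked by position after values had been seen, as the 2 with the nearest starts on each side. KIDINS220, a scaffold protein of neurotrophin signalling, fell from 69.7 ± 1.05 to 57.2 ± 3.36 (SD, n = 3 each; log2 fold change -0.29), but had -0.02 with the replicate block and the length and GC trend removed. ASAP2, an ARF GTPase-activating protein, had -0.15 (95% interval -0.31 to 0.02). ITGB1BP1, a regulator of integrins, rose by 0.15, and ID2, an inhibitor of basic helix-loop-helix transcription factors, rose from 11.1 ± 1.57 to 29.1 ± 3.92 (SD, n = 3 each; 1.35). Against these, MBOAT2 went from 13.5 to 3.17.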
